A study of Mus musculus with 20 samples.

Results

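The 44 genes described here encode complement and coagulation factors, and they were taken by name from the 49315 genes of the deposited expression table. Of these, 25 belong to complement and 19 to coagulation and fibrinolysis. The 20 mice all had diet-induced obesity with steatohepatitis (DIO-NASH) and were fed the AMLN diet. For 8 weeks, 10 of them were given the vehicle (HEC 1%) and 10 were dosed orally every day with S217879 (30 mg/kg). The series is titled for the selective disruption of the contact between NRF2, a transcription factor of antioxidant genes, and KEAP1, the protein that holds NRF2 in check. Each library carries its own animal number in the labels. The sources used here do not give strain, sex or age, and lean mice were not analysed here, so both groups are diseased livers.

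Complement is a chain of plasma proteases and their targets that marks microbes and damaged cells and, at its end, assembles a pore in their membranes. Coagulation is a parallel protease chain that ends in fibrin, which plasmin later dissolves. The liver is the main source of most of these plasma proteins: hepatocytes secrete C3, the terminal components, fibrinogen and the clotting factors, while C1q and properdin come from macrophages and other myeloid cells. By this textbook knowledge 33 members were classed as hepatocyte-made, 4 as macrophage-made (C1qa, C1qb, C1qc and Cfp) and 7 as made by several cell types (C1ra, C1s1, C2, Cfd, C6, Serping1 and Clu).

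Levels are in TPM (transcripts per 1000000), which divide each gene's reads by its length and set every library to the same total of 1000000, so that TPM can be compared between genes but keep no record of sequencing depth. A difference is the mean log2(TPM + 0.5) of S217879 minus that of vehicle, which understates the change of genes of low level. A member was said to rise or fall when its adjusted p in limma, with Benjamini-Hochberg adjustment over the 13401 genes that averaged 1 TPM or more, was under 0.05. All 44 members were abundant enough to be tested. Bulk liver RNA cannot tell fewer cells of a type from less RNA per cell.

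The livers held hepatocyte RNA at high level, with a median Alb (albumin) level of 37094 TPM in vehicle and 29584 TPM in S217879. A few libraries stood apart from their group. Vehicle replicate 6 had the lowest TPM of its group for 43 of 44 members, and for 76.8% of all genes tested. In it the 4 rRNA-type genes Gm23935, Gm24270, Gm42418 and Mir6236 took the largest share of the 20 libraries, 58.2% of all TPM, against group means of 30.0% ± 13.6 (SD, n = 10) in vehicle and 24.0% ± 6.78 (SD, n = 10) in S217879. S217879 replicate 9 had the highest TPM of its group for 21 of 44 members (47.7%), against 23.1% of all genes tested, and S217879 replicate 4 for 17 members (38.6%), against 6703 of all 13401 genes. After the median-of-ratios scaling described next, replicate 9 was highest for 13 members (29.5%) and 12.4% of all genes, and replicate 4 for 6 members (13.6%) and 9.04%. Because such shares move every other gene of a library, results are also given after median-of-ratios scaling, which sets each library by the median of its genes and moved the median difference of all genes tested from -0.12 to -0.01.

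Of the 44 members, 2 rose with S217879 (Cfd and Cpb2) and 11 fell (C1qa, C1qb, C1qc, C1s1, Hc, C6, C8a, C8b, Vtn, Clu and F5), while 31 did not pass the test. Among all genes tested 6.07% rose and 23.5% fell (29.6% either way), so the share of members that fell, 25.0%, was close to that of genes in general. By cascade, of the 25 complement members 10 fell and 1 rose, with a median log2 difference of -0.24, and of the 19 coagulation members 1 fell and 1 rose, with a median of -0.05. The median of all 44 members was -0.17, against -0.12 for all genes tested. After median-of-ratios scaling 12 members rose and 16 fell, when 26.6% of all genes rose and 27.1% fell (53.7% either way), and the same 2 and 11 members were among them. By cascade that was 4 higher and 12 lower complement members (median -0.12) and 8 higher and 4 lower coagulation members (median 0.06). Rescaled without the rRNA-type genes, 3 members rose and 34 fell, when 7.15% of all genes rose and 63.1% fell. Those 2 members and 10 of the 11 kept their calls in each of 36 alternative analyses, the exception being Vtn.

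**Figure D1:**
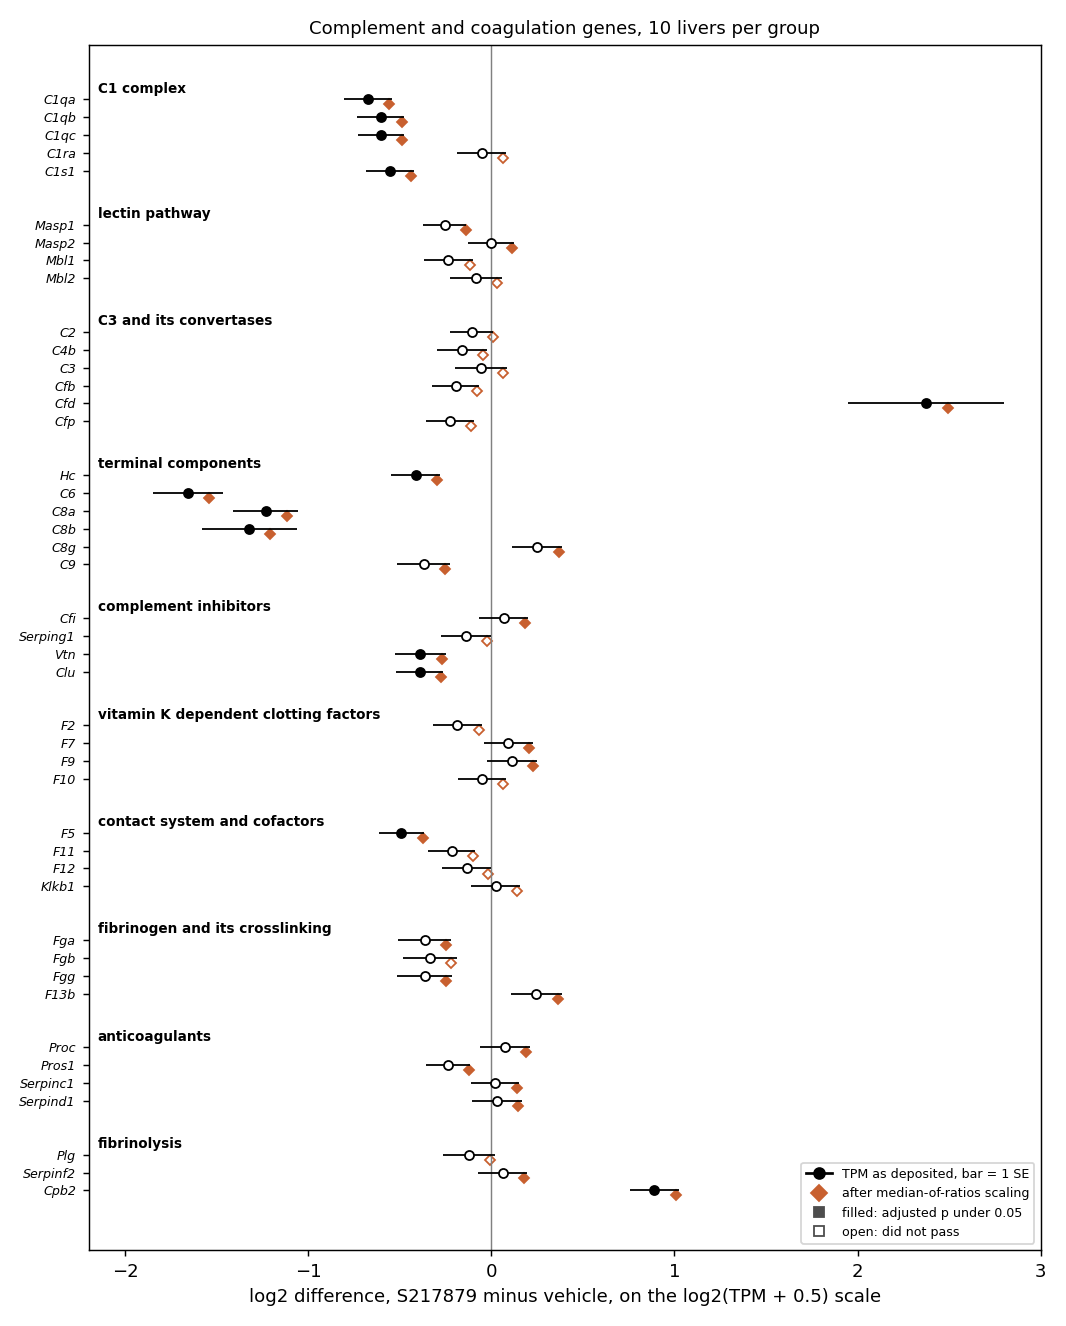
Log2 difference, S217879 minus vehicle, of the 44 members by role group (10 livers per group). Black circles with bars of 1 SE are TPM as deposited, orange diamonds are values after median-of-ratios scaling, and filled symbols passed the adjusted p threshold of 0.05; C6, C8a and C8b lie far to the left, Cfd and Cpb2 far to the right, and most others within 0.5 of zero.

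Of the 5 genes of the C1 complex, which starts the classical pathway when it binds antibody or dying cells, 4 fell and 1 did not pass the test. C1qa, the A chain of the recognition protein C1q, lay at 151 to 295 TPM (median 227) in vehicle and at 104 to 194 TPM (median 139) in S217879. The ranges overlapped, but each of the 10 S217879 livers was below the vehicle median. C1qa was 1.60-fold lower, a log2 difference of -0.67 (SE 0.13, adjusted p = 9.35e-05 by limma). The B and C chains followed it: C1qb went from a median of 226 TPM (149 to 293) to 141 TPM (110 to 202), a log2 difference of -0.61 (limma, adjusted p = 0.000264). C1qc went from 121 TPM (80.3 to 159) to 78.5 TPM (59.4 to 101), a log2 difference of -0.60 (limma, adjusted p = 0.000225).

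The proteases of C1 parted from each other. C1s1, the protease that cleaves C4 and C2, had a median of 355 TPM in vehicle (191 to 396) and 224 TPM in S217879 (179 to 288), a log2 difference of -0.55 (SE 0.13, limma, adjusted p = 0.00122). C1ra, the protease that activates C1s, had a median of 135 TPM in vehicle (66.2 to 154) and 123 TPM in S217879 (90.4 to 137). Its log2 difference of -0.05 did not pass the test (adjusted p = 0.799) and was 0.06 after median-of-ratios scaling. These genes lie 6901 bases apart on chromosome 6, on opposite strands. Within each liver the ratio of C1s1 to C1ra ran from 2.32 to 2.99 in vehicle and from 1.62 to 2.26 in S217879, so the groups did not overlap. The mean log2 ratio differed by -0.50 (adjusted p = 0.00012 over 24 ratios, 2-sided permutation test with 100000 resamples). Its p of 2e-05 before adjustment is the smallest that these resamples can give. The 24 ratios were chosen with earlier results of these data known.

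None of the 4 members of the lectin pathway, in which sugar-binding proteins take the place of C1q, passed the test (0 of 4). Masp1, a protease bound to the mannose-binding lectins, had a median of 76.0 TPM in vehicle (41.6 to 86.9) and 57.3 TPM in S217879 (52.1 to 65.8), with a log2 difference of -0.26 (limma, adjusted p = 0.0981). Each of the 10 S217879 livers was below the vehicle median, and the call was made after median-of-ratios scaling (-0.14, adjusted p = 0.00701). Masp2, the protease that cleaves C4 and C2, had a median of 99.0 TPM in vehicle (54.2 to 115) and 90.4 TPM in S217879 (76.5 to 108). Its difference was -0.002 as deposited and 0.11 after median-of-ratios scaling, where it passed (adjusted p = 0.0264). Of the exonic bases of Masp2, 54.9% also belong to Tardbp on the other strand, and the sources used here do not say whether reads were counted by strand. The lectins Mbl1 and Mbl2 had log2 differences of -0.24 and -0.09 and did not pass as deposited or after median-of-ratios scaling.

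Among the 6 genes of C3 and the convertases that cleave it, 1 rose, Cfd, and 5 did not pass the test. C3, the protein on which all 3 pathways meet, was the most abundant member in both groups, at 1612 to 3620 TPM (median 3088) in vehicle and 2204 to 3705 TPM (median 2769) in S217879. Its log2 difference was -0.06 (limma, adjusted p = 0.808) as deposited and 0.06 after median-of-ratios scaling, and passed in neither. C2 and C4b, which form the classical convertase, differed by -0.11 and -0.16. Cfb, the protease of the alternative convertase, differed by -0.20, and Cfp (properdin), which stabilizes it, by -0.23. C4b has a close paralog in C4a, and C2 and Cfb share exons with the readthrough gene Gm20547, so the split of reads between these genes is uncertain.

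Cfd, factor D or adipsin, cleaves factor B bound to C3b and is best known as a product of fat cells. It ran from 4.40 to 39.1 TPM (median 17.7) in vehicle and from 43.5 to 219 TPM (median 95.4) in S217879, so the lowest S217879 liver was above the highest vehicle liver. Of all genes tested 3.73% had groups that did not overlap, and of the members 2 of 44. Cfd was 5.17-fold higher, a log2 difference of 2.37 (SE 0.43, limma, adjusted p = 0.000295), which lies 2.49 above the median of all genes. For its mean it also had the widest spread of all members in either group, with an SD of 57.4 TPM around a mean of 102 TPM in S217879. Of the 8 fat cell markers 4 were at or near 0 in both groups. Adipoq averaged 0.00949 TPM in vehicle and 0.0343 TPM in S217879, and Lep 0.00193 and 0 TPM. Plin1 averaged 0.0119 and 0.0122 TPM, and Retn 0.00548 and 0.0413 TPM. The other 4 were abundant enough to test. Of these 0 of 4 passed as deposited, and 1 was lower after median-of-ratios scaling. The summed level of all 8 was 324 to 1527 TPM in vehicle and 558 to 925 TPM in S217879. Most of it came from Car3, which hepatocytes also express. The cell source of the Cfd rise was not tested.

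The terminal components, which C5 cleavage sets in motion and which assemble into the membrane attack pore, held the largest falls of all members. Of 6 genes 4 fell and 2 did not pass the test, with a median log2 difference of -0.82. C6, the component that joins C5b, ran from 45.2 to 128 TPM (median 94.4) in vehicle and from 18.5 to 50.7 TPM (median 25.7) in S217879. The ranges overlapped only through vehicle replicate 6, and each S217879 liver was below the vehicle median. C6 was 3.15-fold lower, a log2 difference of -1.66 (SE 0.19, limma, adjusted p = 3.73e-07), the largest fall among the 44 members. C6 is also known as a transcript of mouse Kupffer cells, the resident macrophages of the liver.

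C8 is a protein of 3 chains, and their transcripts did not move together. C8a, the alpha chain, had a median of 248 TPM in vehicle (114 to 325) and 92.1 TPM in S217879 (65.1 to 165), a 2.35-fold fall (log2 -1.23, SE 0.18, limma, adjusted p = 5.03e-06). C8b, the beta chain, had a median of 53.0 TPM in vehicle (22.9 to 82.1) and 22.6 TPM in S217879 (11.2 to 38.2), a fall by 1.32 on the log2 scale (SE 0.26, limma, adjusted p = 0.000632). C8g, the gamma chain, a small lipocalin encoded elsewhere in the genome, had a median of 282 TPM in vehicle (146 to 318) and 301 TPM in S217879 (248 to 371). Its difference of 0.25 did not pass the test as deposited (adjusted p = 0.165) and passed after median-of-ratios scaling (0.37, adjusted p = 3.13e-06). The ratio of C8g to C8a in the same liver was 0.924 to 1.48 (median 1.11) in vehicle and 2.25 to 4.58 (median 3.31) in S217879, with no overlap and a log2 difference of 1.48 (permutation test, adjusted p = 0.00012). The ratio of C8b to C8a had a median of 0.219 in vehicle and 0.203 in S217879, and its difference of -0.09 did not pass (permutation test, adjusted p = 0.514).

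C8a and C8b lie next to each other on chromosome 4, on opposite strands and 11130 bases apart. That gap lies between the ends of the genes, and their starts are at the outer sides of the pair. The 250 bases before the RefSeq start of each are shown because these neighbouring genes fell together. They are on build GRCm38.p6, at chr4:104876399-104876648 (minus strand) for C8a and chr4:104766067-104766316 (plus strand) for C8b. Capitals mark matches on either strand to 2 searched motifs, the STAT3 site TTCNNNGAA and GTTAAT, which is only part of an HNF1 site. The STAT3 match of C8a begins 228 bases and its HNF1 match 107 bases before the start, and the HNF1 match of C8b begins 206 bases before it.
C8a: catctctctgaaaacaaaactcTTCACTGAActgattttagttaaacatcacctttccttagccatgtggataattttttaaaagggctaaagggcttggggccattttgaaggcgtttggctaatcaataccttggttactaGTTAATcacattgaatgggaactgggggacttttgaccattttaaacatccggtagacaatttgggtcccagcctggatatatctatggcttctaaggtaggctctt
C8b: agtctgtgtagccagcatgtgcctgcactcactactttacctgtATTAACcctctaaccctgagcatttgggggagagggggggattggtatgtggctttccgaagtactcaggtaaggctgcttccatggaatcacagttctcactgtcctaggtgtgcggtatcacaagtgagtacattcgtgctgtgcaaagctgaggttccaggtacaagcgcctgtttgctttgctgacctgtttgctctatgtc

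The remaining terminal components differed less. Hc, which encodes C5 in mice, had a median of 287 TPM in vehicle (144 to 317) and 203 TPM in S217879 (166 to 270), a log2 difference of -0.41 (SE 0.13, limma, adjusted p = 0.0168). C9, which forms the wall of the pore, had a median of 298 TPM in vehicle (159 to 361) and 205 TPM in S217879 (159 to 325). Its difference of -0.37 lay just outside the threshold (limma, adjusted p = 0.0522) and passed after median-of-ratios scaling (-0.25, adjusted p = 0.0387). The ratio of C6 to C9 in the same liver was 0.247 to 0.370 in vehicle and 0.0822 to 0.185 in S217879, again with no overlap (log2 difference -1.29, permutation test, adjusted p = 0.00012).

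**Figure D2:**
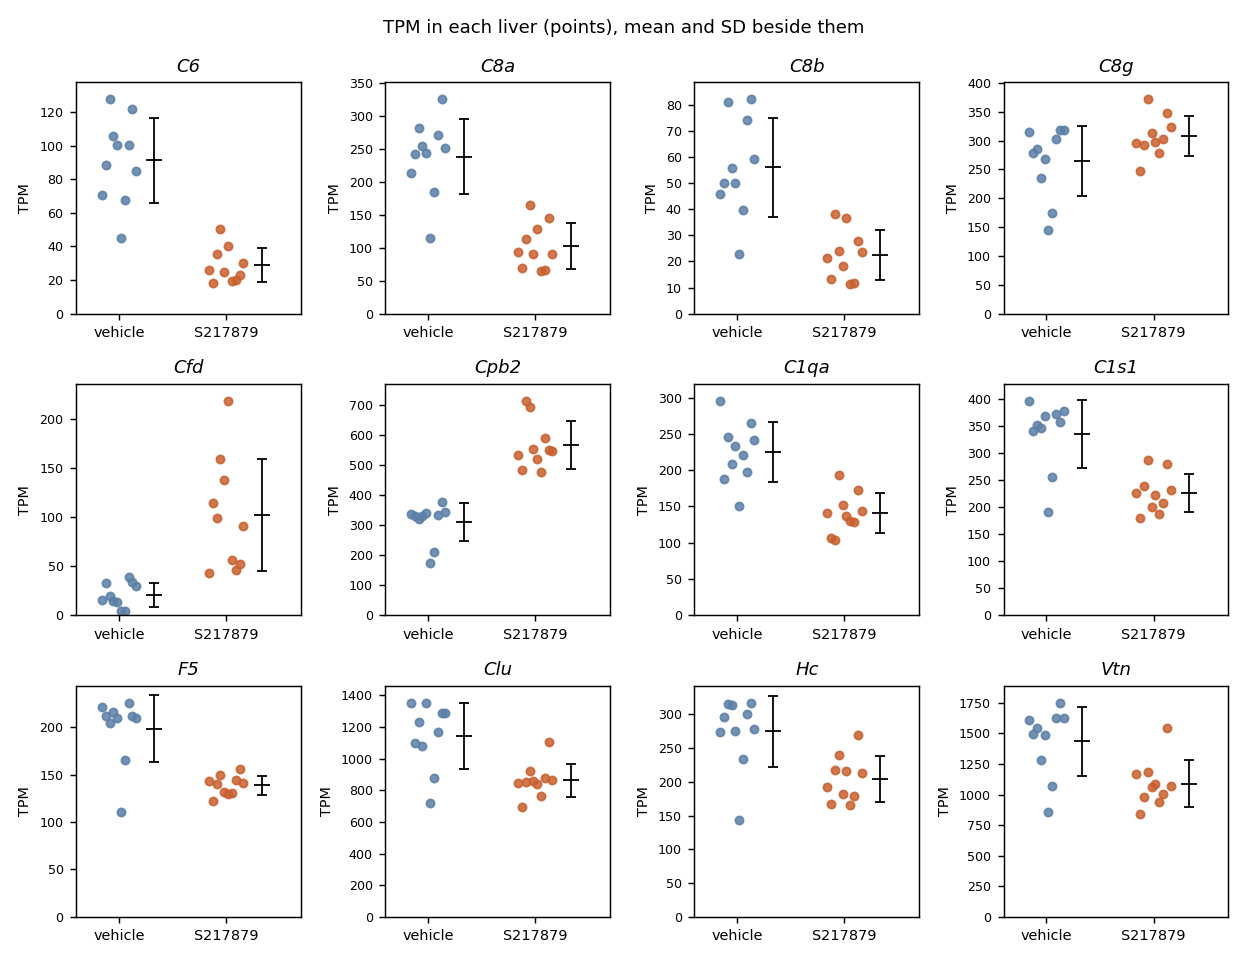
TPM in each liver for 12 members, vehicle in blue and S217879 in orange (points), with the mean and SD of the 10 livers of each group beside them; every axis starts at 0. The groups do not overlap for Cfd and Cpb2, and C8g shows no fall where C8a and C8b do.

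Of the 4 complement inhibitors 2 fell and 2 did not pass the test. Clu (clusterin), which binds assembling attack complexes and keeps them out of membranes, had a median of 1198 TPM in vehicle (718 to 1353) and 855 TPM in S217879 (697 to 1105), a log2 difference of -0.39 (SE 0.13, limma, adjusted p = 0.0201). Vtn (vitronectin), which acts at the same step, had a median of 1519 TPM in vehicle (859 to 1751) and 1063 TPM in S217879 (842 to 1548). Its difference of -0.39 (limma, adjusted p = 0.0307) was past the threshold in 24 of 36 alternatives, and its adjusted p reached 0.0641 without S217879 replicate 2. Cfi (factor I), which cleaves C3b and C4b, had a median of 454 TPM in vehicle (240 to 524) and 437 TPM in S217879 (356 to 528). Its difference of 0.07 (adjusted p = 0.748) passed as higher after median-of-ratios scaling (0.18, adjusted p = 0.00784) and was below 0 under some other scalings. Serping1, the C1 inhibitor, differed by -0.14 and did not pass, but its ratio to its target C1s1 went from a median of 1.48 (1.31 to 1.69) to 1.95 (1.72 to 2.35), with no overlap (log2 difference 0.41, permutation test, adjusted p = 0.00012).

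Among the vitamin K dependent clotting factors, which carry the clotting signal on membranes, 0 of 4 passed the test. F2 (prothrombin) had a median of 712 TPM in vehicle (404 to 803) and 590 TPM in S217879 (483 to 751), a log2 difference of -0.19 (limma, adjusted p = 0.310). F10 (factor X) had a median of 216 TPM in vehicle (114 to 245) and 192 TPM in S217879 (149 to 223), with a difference of -0.05 as deposited and 0.06 after median-of-ratios scaling. F7 and F9 had differences of 0.09 and 0.11 as deposited, and both passed after median-of-ratios scaling (0.21, adjusted p = 0.0151, and 0.23, adjusted p = 0.0179).

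Of the 4 genes of the contact system and cofactors 1 fell, F5, which encodes factor V, the cofactor with which activated factor X activates prothrombin. It ran from 110 to 226 TPM (median 211) in vehicle and from 122 to 155 TPM (median 141) in S217879. Except for vehicle replicate 6, every vehicle liver was above every S217879 liver. The fall was 1.41-fold (log2 -0.49, SE 0.12, limma, adjusted p = 0.00185), and F5 was the only coagulation member to fall in the TPM as deposited. Klkb1, which encodes plasma prekallikrein, had a median of 38.0 TPM in vehicle (16.4 to 49.7) and 34.4 TPM in S217879 (31.3 to 38.1). Its difference of 0.02 (limma, adjusted p = 0.912) changed sign with scaling. Of the exonic bases of Klkb1, 43.2% also belong to Gm45753 on the same strand, so the split of reads between them is uncertain. F11 and F12 differed by -0.22 and -0.14 and did not pass as deposited or after median-of-ratios scaling.

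The fibrinogen chains Fga, Fgb and Fgg, which thrombin converts to fibrin, and F13b, the carrier subunit of the factor that crosslinks fibrin, gave 0 calls in 4. Fga had a median of 1890 TPM in vehicle (1149 to 2125) and 1360 TPM in S217879 (1119 to 2481). Its difference of -0.37 (SE 0.14) missed the threshold (limma, adjusted p = 0.0508), as did Fgb (-0.34, adjusted p = 0.0834) and Fgg (-0.36, adjusted p = 0.0600). The outcome moved with single libraries and with the scaling. S217879 replicate 9 held 2481 TPM of Fga, against 1119 to 1458 TPM in the other 9. Without it all 3 chains fell, Fga by 0.46 (limma, adjusted p = 0.00785), Fgb by 0.43 (adjusted p = 0.0150) and Fgg by 0.46 (adjusted p = 0.0109) on the log2 scale. All 3 chains also passed without vehicle replicate 6 (Fga, adjusted p = 0.00532) or vehicle replicate 7 (Fga, adjusted p = 0.0247), the lowest of their group. Fga and Fgg passed after median-of-ratios scaling with all 20 libraries (adjusted p = 0.0357 and 0.0387), and Fgb did not (adjusted p = 0.0691).

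**Figure D3:**
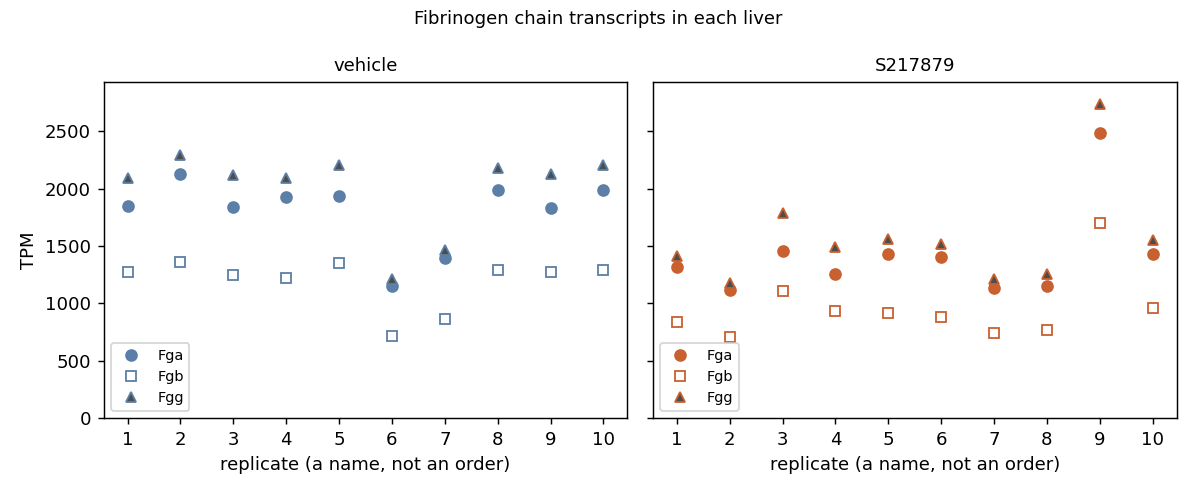
TPM of Fga, Fgb and Fgg in each of the 10 vehicle livers (blue, left) and 10 S217879 livers (orange, right), by replicate number, which is a name and not an order. The chains move together from liver to liver, with vehicle replicates 6 and 7 low in their group and S217879 replicate 9 high in its group at 1698 to 2734 TPM.

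An acute-phase list of 19 genes held proteins that the liver switches on in inflammation. It also held the receptor and signalling genes Il1r1, Il6ra, Il6st, Stat3 and Socs3. Of the 19, 17 had their highest S217879 value in the same library, the exceptions being Saa3 and Hamp. Saa1 was 469 TPM in S217879 replicate 9, against at most 242 TPM in the other 9, and Lcn2 was 117 TPM against at most 43.6 TPM. Nqo1, a target gene of NRF2, was 74.9 TPM there, below the 89.1 to 122 TPM of the other 9 and above the vehicle median of 15.7 TPM. These genes were chosen after their values were seen, and their part in the fibrinogen values was not tested.

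The proportions of the fibrinogen chains varied little from liver to liver. Fgg was 1.05 to 1.16 times Fga in the vehicle livers and 1.06 to 1.23 times in the S217879 livers, with a log2 difference of 0.0009 (permutation test, adjusted p = 0.975). The SD of that log2 ratio was 0.052 in vehicle, against 0.305 for Fgg itself. Fgb to Fga had medians of 0.648 and 0.663 (log2 difference 0.03, permutation test, adjusted p = 0.494). The genes lie side by side at chr3:83007724-83049863. The RefSeq window of the third chain, Fgg, held no match to any motif searched and is not shown. The stretches before the starts of Fga (chr3:83025903-83026152, plus strand) and Fgb (chr3:83049864-83050113, minus strand), from RefSeq on GRCm38.p6, are shown. Each holds the STAT3 site, the partial HNF1 site GTTAAT and the C/EBP site TTGCNNAA. Capitals mark these and, in Fgb, the PU.1 core GAGGAAG.
Fga: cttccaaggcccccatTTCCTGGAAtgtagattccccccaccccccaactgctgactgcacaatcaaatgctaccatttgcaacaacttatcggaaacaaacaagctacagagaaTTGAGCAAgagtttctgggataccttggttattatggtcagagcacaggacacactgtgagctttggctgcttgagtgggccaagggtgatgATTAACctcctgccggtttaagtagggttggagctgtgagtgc
Fgb: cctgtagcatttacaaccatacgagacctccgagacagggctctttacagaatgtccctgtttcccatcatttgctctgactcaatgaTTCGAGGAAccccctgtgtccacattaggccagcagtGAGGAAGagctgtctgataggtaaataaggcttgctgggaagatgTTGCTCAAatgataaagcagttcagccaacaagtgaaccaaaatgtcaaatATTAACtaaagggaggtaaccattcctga

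F13b stood apart from the chains, with a median of 134 TPM in vehicle (61.5 to 153) and 146 TPM in S217879 (118 to 184). Its difference of 0.24 did not pass as deposited (limma, adjusted p = 0.188) and passed after median-of-ratios scaling (0.36, adjusted p = 0.000188).

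None of the 4 anticoagulants passed the test (0 of 4). Pros1 (protein S), the cofactor of activated protein C, had a median of 51.7 TPM in vehicle (29.1 to 59.3) and 40.1 TPM in S217879 (36.2 to 51.4), a log2 difference of -0.24 (limma, adjusted p = 0.130). Serpinc1 (antithrombin) inhibits thrombin and activated factor X. It had a median of 338 TPM in vehicle (183 to 373) and 317 TPM in S217879 (254 to 354). Its difference was 0.02 (limma, adjusted p = 0.925), with a sign that changed under other scalings. Of the exonic bases of Serpinc1, 34.4% also belong to Zbtb37 on the other strand. Proc (protein C) and Serpind1 (heparin cofactor II) differed by 0.07 and 0.03. After median-of-ratios scaling all 4 passed, Pros1 as lower (-0.12) and Proc (0.19), Serpinc1 (0.14) and Serpind1 (0.15) as higher.

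Of the 3 genes of fibrinolysis 1 rose, Cpb2, which encodes the thrombin-activated fibrinolysis inhibitor, a carboxypeptidase that trims fibrin so that plasminogen binds it less. It ran from 176 to 376 TPM (median 333) in vehicle and from 477 to 714 TPM (median 550) in S217879. The groups did not overlap. The rise was 1.85-fold (log2 0.89, SE 0.14, limma, adjusted p = 1.97e-06), which lies 1.01 above the median of all genes. Plg (plasminogen), the precursor of plasmin, had a median of 1255 TPM in vehicle and 1035 TPM in S217879 (difference -0.12, adjusted p = 0.548). Serpinf2 (alpha2-antiplasmin), which inhibits plasmin, had a median of 413 TPM in vehicle (226 to 463) and 382 TPM in S217879 (323 to 582), with a difference of 0.06 (adjusted p = 0.775). It passed as higher after median-of-ratios scaling (0.18, adjusted p = 0.0233) and was below 0 under some other scalings. The 250 bases before the start of Cpb2 (chr14:75242037-75242286, plus strand, RefSeq on GRCm38.p6) are shown because no other coagulation member rose as deposited; they hold no match to the 6 motifs searched, so all letters are lower case, while a C/EBP match begins 8 bases after the start, outside the stretch shown.
Cpb2: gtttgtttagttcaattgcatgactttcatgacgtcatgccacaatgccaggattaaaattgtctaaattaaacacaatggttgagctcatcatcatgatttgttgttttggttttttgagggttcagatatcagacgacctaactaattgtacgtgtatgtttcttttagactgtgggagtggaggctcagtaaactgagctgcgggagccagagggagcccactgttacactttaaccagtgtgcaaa

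A ratio of 2 genes in the same library does not depend on how the library is scaled. Of the 24 ratios tested 13 passed, 8 higher and 5 lower in S217879, among them the 4 described above whose groups did not overlap. Ratios of other gene pairs were not tested, so it cannot be said whether this share is unusual. Of single genes, 53.7% of all tested passed either way after median-of-ratios scaling. All 24 ratios were chosen with earlier results of these data known. The 4 without overlap each join a member that fell with one that did not pass as deposited. Their p-values are therefore not independent of those calls. The ratio of an inhibitor to a protease or its precursor was higher in the 3 pairs of this kind that were chosen, Serping1 to C1s1 being the first. As deposited, none of these inhibitors passed the test alone (Serping1 -0.14, Serpinc1 0.02, Serpinf2 0.06), while C1s1 fell. Serpinc1 to F2 went from a median of 0.460 (0.445 to 0.492) to 0.525 (0.472 to 0.613), a log2 difference of 0.21 (permutation test, adjusted p = 0.0002). Serpinf2 to Plg went from 0.336 to 0.378 (0.18, permutation test, adjusted p = 0.0002). In each of these ratios the 10 S217879 livers were all above the vehicle median. Ratios of these inhibitors to other proteases were not tested. As deposited, other proteases differed to either side of Serping1, C1ra by -0.05, Masp2 by -0.002 and F11 by -0.22. The 3 pairs therefore do not stand for inhibitors and proteases in general.

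Further partners also shifted against each other. Masp2 to Masp1 went from 1.29 to 1.57 (0.25, permutation test, adjusted p = 0.000549), F7 to F10 from 0.335 to 0.366 (0.14, adjusted p = 0.00722), F11 to Klkb1 from 0.801 to 0.712 (-0.24, adjusted p = 0.00724) and Pros1 to Proc from 0.110 to 0.088 (-0.31, adjusted p = 0.00288). The mean proportions of the C1q chains differed 1.05-fold between the groups. C1qc to C1qa went from 0.536 to 0.562 (0.07, permutation test, adjusted p = 0.00722) and C1qb to C1qa from 0.992 to 1.03 (0.07, adjusted p = 0.0231). The ratio of C1qb to C1qa ran from 0.959 to 1.03 in vehicle and from 0.957 to 1.22 in S217879. Its log2 difference was 0.04 without S217879 replicate 3. That ratio lost its call in 4 of 24 alternatives, among them those without vehicle replicate 7 or vehicle replicate 9. The ratios of Cfi, Cfb and Cfp to C3, of Mbl2 to Mbl1 and of C3 to Alb did not pass. Cfb to C3 (-0.14, permutation test, adjusted p = 0.196) was -0.21 and passed without S217879 replicate 4 (adjusted p = 0.00112). Fga to Alb did not pass either (-0.19, permutation test, adjusted p = 0.222), and passed without S217879 replicate 9 (adjusted p = 0.0196).

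**Figure D4:**
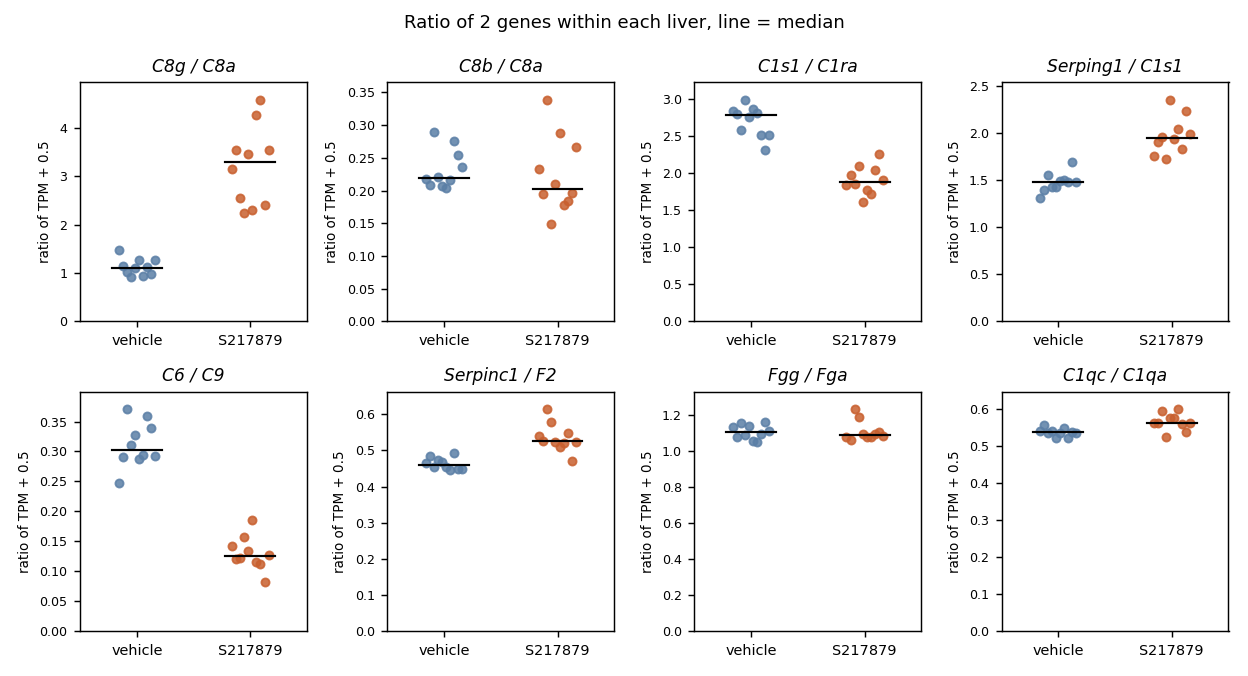
Ratio of 2 genes within each liver, computed on TPM + 0.5, for 8 of the 24 ratios; points are livers (10 vehicle in blue, 10 S217879 in orange) and lines are medians. C8g to C8a rises from a median of 1.11 to 3.31 with no overlap, while Fgg to Fga stays near 1.1 in both groups.

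Set apart by source, the 4 macrophage-made members gave 3 falls and 1 gene that did not pass, with a median log2 difference of -0.60 (-0.49 after median-of-ratios scaling). For comparison, 23.5% of all genes tested fell and 6.07% rose, with a median of -0.12. After median-of-ratios scaling 27.1% of all genes fell and 26.6% rose. The 33 hepatocyte-made members gave 5 falls and 1 rise, with a median of -0.14 (-0.02 after median-of-ratios scaling, where 10 fell and 11 rose). The 7 members made by several cell types gave 3 falls (C1s1, C6 and Clu) and 1 rise (Cfd), with a median of -0.14 (-0.02 after median-of-ratios scaling). The summed level of the macrophage-made members was 404 to 798 TPM (median 616.5) in vehicle and 303 to 539 TPM (median 394.2) in S217879. That of the hepatocyte-made members was 10074 to 19793 TPM (median 18611) in vehicle and 12514 to 21549 TPM (median 15214) in S217879. Its median was thus lower in S217879, although both ends of its range were higher.

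Macrophage markers fell in the same livers. The 20 listed markers had a summed level of 752 to 1465 TPM in vehicle and 609 to 1134 TPM in S217879. Of these 18 were tested and 13 fell (72.2% of those tested, against 23.5% of all genes tested), while 0 rose. Their median log2 difference was -0.59. The lowest were Gpnmb (-1.40), Trem2 (-1.06) and Cd14 (-0.86), genes of lipid-laden and inflammatory macrophages. Against the general macrophage genes Csf1r and Adgre1, C1qa did not differ past the threshold: its ratio to Csf1r had medians of 4.47 and 4.26 (log2 difference -0.10, permutation test, adjusted p = 0.245), and its ratio to Adgre1 7.18 and 6.90 (-0.08, adjusted p = 0.499). Clec4f, a marker of Kupffer cells, did not pass (-0.18, limma, adjusted p = 0.413), and C1qa fell against it, from a median ratio of 2.46 to 1.71 (-0.49, permutation test, adjusted p = 0.00724). How far the macrophage content of the livers sets the C1q values was not tested.

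Other complement genes were taken from a list of receptors, regulators and related proteins. Of 28 listed genes 24 were tested, of which 7 fell (29.2%) and 3 rose, with a median log2 difference of -0.18. Among all genes tested 23.5% fell and 6.07% rose, with a median of -0.12. The share of the list that fell was thus near that of genes in general. The largest falls were in receptors for the fragments and coats that complement leaves. C5ar1, the receptor of C5a, ran from 4.20 to 7.10 TPM in vehicle and from 1.05 to 3.10 TPM in S217879 (-1.37, limma, adjusted p = 3.96e-12). Itgax, a chain of complement receptor 4, fell by 1.16 and C3ar1, the receptor of C3a, by 0.95 on the log2 scale. In all 3 the groups did not overlap, as in 3.73% of all genes tested. The rises were in Cfhr3 (0.56), C1qbp, a mitochondrial protein that also binds C1q (0.53), and Cd55, a membrane inhibitor of convertases (0.31).

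Of 36 other coagulation and fibrinolysis genes 31 were tested, of which 13 fell (41.9%) and 1 rose, with a median log2 difference of -0.18. Among all genes tested 23.5% fell and 6.07% rose, with a median of -0.12. Anxa2, a cell-surface receptor of plasminogen and its activator, had a median of 61.5 TPM in vehicle (52.1 to 85.4) and 26.0 TPM in S217879 (19.4 to 45.2), a log2 difference of -1.24 (limma, adjusted p = 6.74e-10), with no overlap. Plat, the tissue plasminogen activator, fell by 0.81, also with no overlap, and Fgl1, a fibrinogen-like liver protein, by 0.76 on the log2 scale. The groups did not overlap in 3.73% of all genes tested. F8, factor VIII, which liver endothelial cells make, had a median of 4.16 TPM in vehicle and 5.01 TPM in S217879 and rose by 0.38 (limma, adjusted p = 0.0177). Of 10 endothelial markers 4 rose and 0 fell, against 6.07% and 23.5% of all genes tested. The rises were led by Lyve1 (0.86), Kdr (0.43) and Oit3 (0.40).

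**Figure D5:**
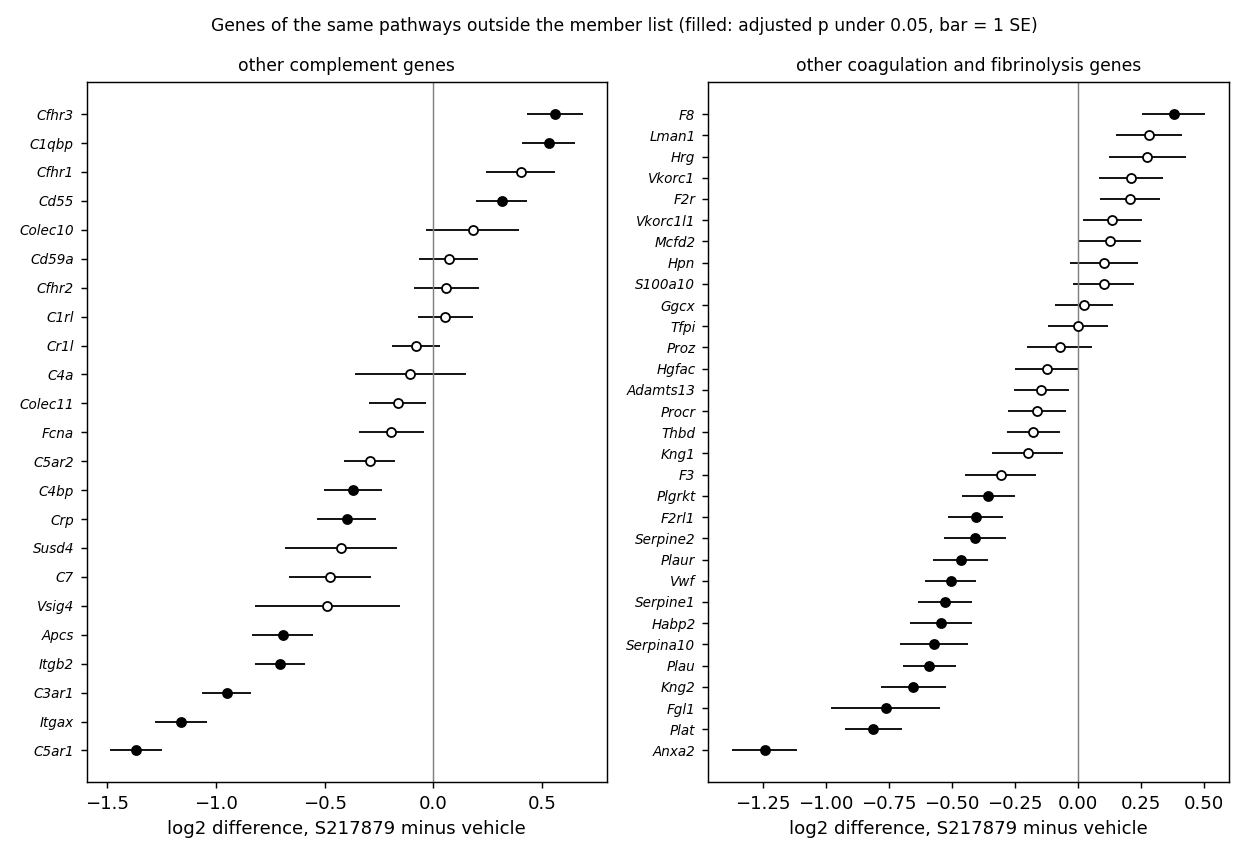
Log2 difference, S217879 minus vehicle, of other complement genes (left) and other coagulation and fibrinolysis genes (right) that were tested and are reported here, with bars of 1 SE; filled circles passed the adjusted p threshold of 0.05. C5ar1 at -1.37 and Anxa2 at -1.24 are the lowest of their panels.

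Genes that share the hepatocyte with most members gave mixed calls, where 23.5% of all genes tested fell and 6.07% rose. Of 15 hepatocyte markers 3 fell, the plasma protein genes Apoa1 (-0.69), Hpx (-0.60) and Ahsg (-0.54), and 3 rose, Fetub (0.78), Ttr (0.50) and Apoa2 (0.44). Of the 19 genes of the acute-phase list 6 fell, led by Orm2 (-1.45), Lcn2 (-1.05) and Itih4 (-0.72), and 4 rose, led by Orm3 (0.83), Saa3 (0.79) and Saa4 (0.58). Of 13 liver transcription factors 2 fell, led by Foxa3 (-0.66), and 0 rose. Of 8 neutrophil markers 2 could be tested and 0 passed, the more abundant being S100a9 and S100a8, and of 6 platelet and megakaryocyte markers 2 could be tested and 1 fell, Pf4 (-0.43).

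Positions and promoters were described for the members as well. Of the 44 members 16 lie within 100000 bases of another member, in 11 pairs. C1qa, C1qc and C1qb occupy chr4:136880129-136898803, and their differences lay within 0.07 of each other on the log2 scale. Fga, Fgb and Fgg were likewise within 0.03, and C8a and C8b within 0.09, while C1ra and C1s1 were 0.50 apart. For 34 of the 44 members RefSeq promoters were at hand, 36 windows in all of 250 bases before to 50 bases after the start. The 6 motifs were searched on both strands, with no 2 matches overlapping in a member. The C/EBP site TTGCNNAA was in 30.6% of member windows and in 10.8% of all 32851 windows. The partial HNF1 site GTTAAT was in 27.8% against 7.10%, and the STAT3 site TTCNNNGAA in 22.2% against 8.30%. The core of the antioxidant response element, to which NRF2 binds, written TGACNNNGC, was in 13.9% of member windows and in 12.4% of all windows. The HNF4 site CAAAGTC was in 2.78% against 4.44% and the PU.1 core GAGGAAG in 5.56% against 13.6%. These are matches of letters, and binding was not measured.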

How the data were processed

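Liver RNA of 20 mice was sequenced after capture of polyadenylated RNA with a stranded kit, per the labels' protocols. The submitters' processing notes name Trimmomatic 0.36, STAR 2.5.2b, featureCounts, Subread 1.5.2 and the build GRCm38. Their order, their settings, the annotation and the use of strand were not given in the sources used here. Signal values of 49315 genes were deposited, and they were taken as TPM because the file's name says so and every column sums to 1000000. Depth is unknown, and counts cannot be had from TPM. Each column was matched to its animal number in the labels, with 0 columns left over, and 0 pairs of libraries held identical values. Symbols were found for 48970 of the Ensembl gene identifiers.

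Values were taken as log2(TPM + 0.5) for the 13401 genes that averaged 1 TPM or more. The groups were fitted in limma 3.58.1 under R 4.3.3 (trend and robust, group as the only term), and p-values were adjusted by Benjamini-Hochberg over all genes tested. Ratios were compared by a 2-sided permutation test of the mean log2 ratio (100000 resamples, SciPy 1.17.1), adjusted over the 24 ratios. p-values measure the spread between these animals. The members and all gene lists, ratios and motifs were chosen with earlier results of these data known. Members called with an absolute log2 difference of at least 0.5, and the most and least changed member of each role group, are given with their ranges; of other lists up to 3 called genes in each direction are named, and some genes of these lists are not reported here. Tested on data simulated from the means and spreads of this comparison (13401 genes), the fit recovered 68.7% of log2 changes of 0.5, 98.5% of changes of 1 and 100% of changes of 2. It called 10 of 13201 unchanged genes. The simulation gave each gene independent noise and held no shift shared by the genes of a library. These rates therefore do not cover the library shifts of the real data. Alternatives covered the pseudocount, the filter, 5 other scalings, the settings and weights of limma, a Wilcoxon rank-sum test and leaving out libraries.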

Additional observations from a re-analysis of the deposited data

Results flagged for a closer look

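Each member was looked at in each group for a library far from the other 9, which by chance marks about 1 in 20 groups. Of 88 groups 11 were marked, by Dixon's test of the gap to the next library over the group's range, and all 11 fell on 2 libraries. The members share these libraries, so the marks are not independent.

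S217879 replicate 9 was the highest of its group for 8 of these genes. It held 2481 TPM of Fga (the next library held 1458), 1698 TPM of Fgb (next 1109) and 2734 TPM of Fgg (next 1791). It held 1019 TPM of C4b (next 693), 1548 TPM of Vtn (next 1187), 751 TPM of F2 (next 626), 1435.5 TPM of Plg (next 1125) and 582 TPM of Serpinf2 (next 424).

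Vehicle replicate 6 was the lowest of its group for the remaining 3: C3 at 1612 TPM (next 2642), Hc at 144 TPM (next 234) and F5 at 110 TPM (next 165). After median-of-ratios scaling this library was still the lowest of its group for 28 of the 44 members (63.6%), and for 2272 of all 13401 genes tested.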

How the results depend on the processing

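TPM hold no depth, so precision rests on the 10 livers per group, and the number of calls moved with the scaling of the libraries, their weights and which were kept. The 11 members that fell became 29 with quantile normalization, 34 without the 4 rRNA-type genes, 29 without the 20 most abundant genes, 33 with array weights and 31 without vehicle replicates 6 and 7. The 2 that rose became 4 with quantile normalization, 12 with median-of-ratios scaling and 4 without the 20 most abundant genes. For all genes, the 813 higher and 3151 lower became 3536 and 3354 with quantile normalization, 3562 and 3624 with median-of-ratios scaling, 1033 and 9113 without the rRNA-type genes, 1519 and 8147 without the 20 most abundant genes, 965 and 8023 with array weights, and 747 and 7307 without vehicle replicates 6 and 7. In 2 settings chosen after seeing the data, leaving out those 2 and S217879 replicate 9 gave 32 lower, and doing so after median-of-ratios scaling gave 18 lower and 7 higher. Leaving out 1 library at a time gave 10 to 22 lower (22 without vehicle replicate 6, next 16 without vehicle replicate 7) and 2 to 2 higher. The cause of these shifts was not tested.

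Medians of the log2 differences of the hepatocyte-made members, the macrophage-made members and those made by several cell types ranged from -0.217 to -0.100, -0.665 to -0.557 and -0.226 to -0.100 with 1 library left out. The median of the members made by several cell types was -0.332 with array weights and -0.335 without the 3 libraries, where that of the hepatocyte-made members was -0.330. Ratios that passed numbered 12 to 14 with 1 library left out.

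No member called as deposited changed sign in 36 alternatives, and 14 of the others did. All 31 members without a call passed in at least 1 alternative. Median-of-ratios scaling gave C1ra 0.063, Masp2 0.114, Mbl2 0.030, C2 0.007, C3 0.061 and F10 0.064, and, without the 3 libraries, C1ra 0.035, Masp2 0.074, Mbl2 0.013, C3 0.036 and F10 0.030. Rescaling without mitochondrial genes gave Masp2 0.019. Quantile normalization gave Cfi -0.061, Proc -0.049, Serpinc1 -0.104, Serpind1 -0.086 and Serpinf2 -0.074. Without the rRNA-type genes Cfi was -0.077, F7 -0.051, F9 -0.032, Klkb1 -0.117, Proc -0.070, Serpinc1 -0.123, Serpind1 -0.112 and Serpinf2 -0.083. Without the 20 most abundant genes Cfi was -0.005, Klkb1 -0.045, Serpinc1 -0.051, Serpind1 -0.040 and Serpinf2 -0.010. Array weights gave Cfi -0.101, F7 -0.062, F9 -0.094, Klkb1 -0.176, Proc -0.088, Serpinc1 -0.123, Serpind1 -0.148 and Serpinf2 -0.090. Without vehicle replicates 6 and 7 Cfi was -0.083, F7 -0.064, F9 -0.041, Klkb1 -0.171, Proc -0.086, Serpinc1 -0.133, Serpind1 -0.134 and Serpinf2 -0.076. Without the 3 libraries they were -0.112, -0.112, -0.061, -0.168, -0.106, -0.154, -0.149 and -0.139. With 1 or more libraries left out, F9 reached 0.149 and Masp2 -0.186, and with 1 left out Cfi ranged from -0.023 to 0.102, F7 from -0.002 to 0.135, Klkb1 from -0.091 to 0.084, Masp2 from -0.084 to 0.036, Proc from -0.013 to 0.110, Serpinc1 from -0.062 to 0.053, Serpind1 from -0.073 to 0.064 and Serpinf2 from -0.021 to 0.094. No paired analysis was possible because the labels number every animal separately and no number is shared between the groups.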
